A study of Mus musculus with 12 samples.

Results

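Ephrins, Eph receptors, semaphorins and plexins were read off the whole-tumor expression table of mouse MC38 tumors. Members were the genes whose symbols name an ephrin-A or ephrin-B, an EphA or EphB receptor, a semaphorin of classes 3 to 7 or a plexin A, B, C or D. The rule found 50 of the 18211 genes in the table, made up of 8 ephrins, 13 Eph receptors, 20 semaphorins and 9 plexins. Of these, 43 had enough counts to be tested. Epha10, Epha7 and Sema3e had fewer than 30 counts summed over all tumors and are only listed, and Epha1, Epha6, Sema5b and Plxnb3 were above that limit but below the filter on low counts.

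MC38 is a mouse colorectal adenocarcinoma cell line. In all 4 groups it was grown under the skin of female C57BL/6 mice that were 5 weeks old when bought, and the mice were put into groups 7 days after the cells were injected. CK tumors came from mice given vehicle. PB-020, an oral IGF-1R inhibitor (IGF-1R is a growth factor receptor kinase), was dosed daily by gavage at 50 mg/kg. The anti-PD-1 group received the antibody RMP1-14, which blocks the PD-1 checkpoint receptor of T cells, by intraperitoneal injection of 200 μg on days 9, 12, 15 and 18, and the PB-020/anti-PD-1 group received both. Each group held 3 tumors, for 12 libraries in all. Tumor cells and host cells are both of mouse origin and cannot be separated in these libraries, and every graft came from 1 cell line.

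Ephrins are membrane-bound ligands. Ephrin-A proteins are held by a lipid anchor and bind mostly EphA receptor tyrosine kinases, whereas ephrin-B proteins span the membrane, bind mostly EphB receptors and can themselves signal into the cell that carries them. Semaphorins are secreted (class 3) or membrane-bound (classes 4 to 7) ligands of the plexins, and most class 3 proteins need a neuropilin as co-receptor. Both systems were first known for repelling growing axons, and in tumors and blood vessels they act on cell sorting, adhesion, vessel growth and the movement of immune cells.

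The summed expected counts of the libraries ran from 16545394 to 17217035. T cell markers were higher in every tumor given anti-PD-1 than in every other tumor, with a summed level of 13.9 to 19.0 FPKM (fragments scaled to transcript length and library total) in CK, 20.6 to 25.9 with PB-020, 30.8 to 77.6 with anti-PD-1 and 37.6 to 60.4 with the combination. Fibroblast markers summed to 1878 to 2515 FPKM in CK and 1778 to 1833 with PB-020. They summed to 857 to 1596 with anti-PD-1 and 888 to 1244 with the combination. That sum was carried mainly by Col3a1 and Dcn. With anti-PD-1 and with the combination, 4 of the 8 listed genes had a lower mean than CK and 4 a higher one. These 4 higher genes had their highest anti-PD-1 value in tumor 1. Some libraries stood apart. Anti-PD-1 tumor 1 held 601.1 FPKM of skeletal muscle markers against 12.5 to 69.6 in the others. It also had the highest macrophage sum (1338 FPKM, at most 994.3 elsewhere) and the highest T cell and dendritic cell sums. CK tumor 3 held 98.7 FPKM of adipocyte markers against at most 7.61 elsewhere and 411.6 FPKM of neutrophil markers against at most 33.0. It had the highest fibroblast and endothelial sums too. The epithelial markers Epcam, Krt8, Krt18, Krt19 and Cdh1 summed to only 2.19 to 4.29 FPKM, so these defining markers of the labelled colorectal cells were near absent. B cell markers summed to at most 1.27 FPKM.

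To show where these genes start, the 250 bases upstream of the start site are given for the lowered member (Sema5a), raised member (Epha2) and ephrin (Efna5) with the lowest p in the PB-020/anti-PD-1 comparison, from RefSeq on GRCm38.p6. They run 5′ to 3′ on the strand of the gene, and the capitals mark GC boxes (GGGCGG or its reverse complement CCGCCC, overlapping matches joined).
Sema5a, chr15:32244563-32244812, plus strand: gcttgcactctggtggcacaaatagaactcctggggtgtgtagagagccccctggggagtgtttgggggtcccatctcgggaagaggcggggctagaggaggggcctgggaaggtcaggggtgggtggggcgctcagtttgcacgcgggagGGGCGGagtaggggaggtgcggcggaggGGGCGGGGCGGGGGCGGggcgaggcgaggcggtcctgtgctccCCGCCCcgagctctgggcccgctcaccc
Epha2, chr4:141300971-141301220, plus strand: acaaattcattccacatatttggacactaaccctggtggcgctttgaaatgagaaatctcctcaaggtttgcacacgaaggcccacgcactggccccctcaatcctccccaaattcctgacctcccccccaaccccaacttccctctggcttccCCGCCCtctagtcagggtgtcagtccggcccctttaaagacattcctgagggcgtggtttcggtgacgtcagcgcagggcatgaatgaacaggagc
Efna5, chr17:62881318-62881567, minus strand: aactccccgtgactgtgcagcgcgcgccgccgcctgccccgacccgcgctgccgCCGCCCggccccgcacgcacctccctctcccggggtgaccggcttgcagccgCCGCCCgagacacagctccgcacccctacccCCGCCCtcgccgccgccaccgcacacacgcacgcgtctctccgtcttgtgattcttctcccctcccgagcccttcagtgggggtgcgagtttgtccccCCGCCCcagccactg

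The Sema5a window held 5 GC boxes and was 72.0% G or C. The Epha2 window held 1 and was 55.6% G or C, and that of Efna5 held 4 and was 74.8% G or C. Windows of this kind were matched for 44 of the 50 members, and counting alternative start sites there were 58. A GC box on either strand stood in 74.1% of these 58 windows, against 32.7% of all 32851 reference windows. Those windows covered 27025 genes, more than the 18211 in the expression table. The TATA box TATAAA stood in 1.72% against 12.4%, and CCAAT in 32.8% against 33.8%. The interferon-type element TTCNNNGAA stood in 3.45% of member windows and in 7.02% of all, and the AP-1 element TGANTCA in 5.17% and 6.75%. The median G or C content was 64.2% in member windows and 52.4% in all, and a match of letters is not evidence of a factor at that site.

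In CK tumors a few members made up much of each family, on the FPKM scale, which is per length of transcript. Epha2, an EphA receptor that is common on epithelial and carcinoma cells, took 52.3% of the summed Eph receptor level. Plxnb2, a plexin B that binds class 4 semaphorins, took 51.2% of the plexin level. Efna1, the best known ligand of EphA2, took 38.2% of the ephrin level, and the secreted Sema3c took 24.3% of the semaphorin level. The order within the receptors was Epha2 (35.1 ± 3.07 FPKM, SD, n = 3), then Ephb4 (19.8 ± 1.04), an EphB receptor known from veins, then Ephb6, Ephb2 and Ephb3 between 2.96 and 4.04. Among plexins Plxnb2 (51.7 ± 1.98) stood above Plxna1 (19.3 ± 0.46) and the endothelial receptor Plxnd1 (15.9 ± 2.66). The CK tumors of Plxna1 and Plxnd1 came close, at a lowest Plxna1 value of 19.0 and a highest Plxnd1 value of 18.7. Sema3c was followed by Sema4b, Sema3b and Sema7a, at 20.4, 16.6 and 16.3 FPKM, and the CK tumors of Sema3b and Sema7a overlapped.

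**Figure D1:**
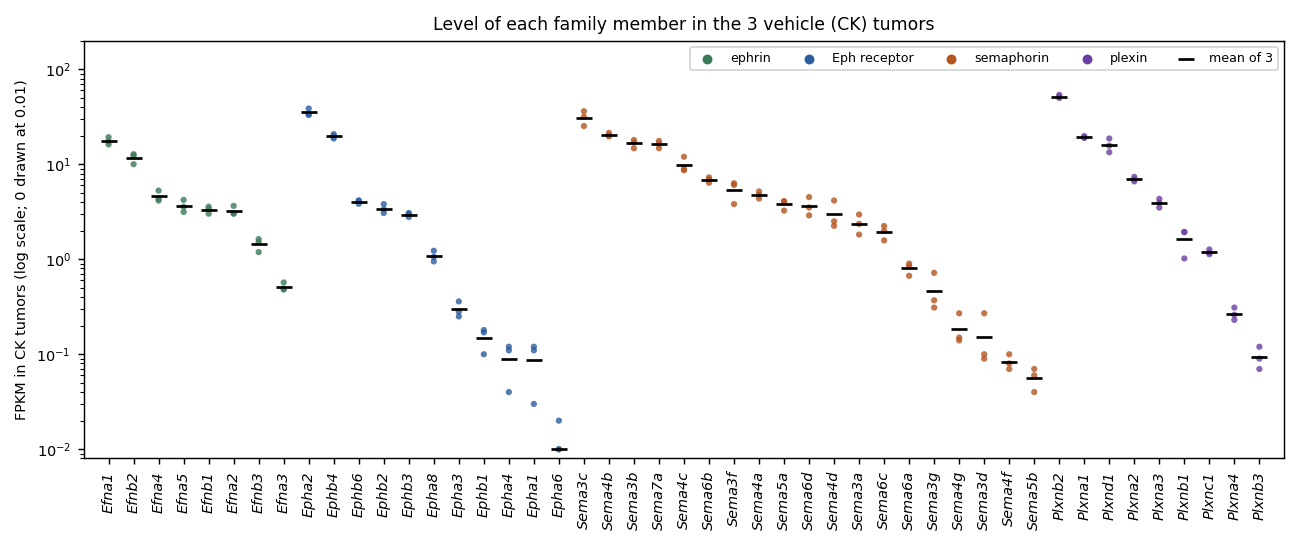
Level of each member with at least 30 counts in the 3 CK tumors, as FPKM on a log axis, grouped by family and ordered by the mean (black dash). Epha2 and Plxnb2 lead their families at 35.1 and 51.7 FPKM, while Epha6 and Sema5b lie below 0.1.

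The summed level of the Eph receptors was 67.0 ± 2.27 FPKM in CK, 71.7 ± 3.80 with PB-020, 82.7 ± 7.4 with anti-PD-1 and 76.7 ± 4.87 with the combination (SD, n = 3). For the semaphorins the sums were 127.7 ± 3.74, 120.7 ± 7.22, 110.8 ± 10.7 and 105.2 ± 5.65. Ephrins moved between 45.0 and 48.3 FPKM, and plexins between 93.1 and 107.8. In bulk tumor, fewer cells of a type and less RNA per cell cannot be told apart in any of these values.

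Changes were tested with the quasi-likelihood test of edgeR over all 13563 genes with enough counts, and raised or lowered stands for a Benjamini-Hochberg adjusted p under 0.05. The comparison with the most members called set the 6 tumors given anti-PD-1, alone or with PB-020, against the 6 not given it. It called 18 of the 43 tested members (41.9%), against 24.2% of all genes tested. Of these, 10 were raised, beside 11.8% of all genes, and 8 were lowered, beside 12.3%. The median size of the log2 difference was 0.32 over members and 0.14 over all genes. Members also had the larger median in comparisons that called none of them. It was 0.18 against 0.09 for PB-020 against CK, and 0.13 against 0.10 for the combination against anti-PD-1 alone. The 18 called members came from each of the 4 families. They included 4 of 8 ephrins, 5 of 9 Eph receptors, 6 of 18 semaphorins and 3 of 8 plexins.

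Against CK, anti-PD-1 alone raised 3 members (4.18% of all genes were raised) and lowered 3 (4.08% of all genes), which is 14% of members beside 8.26% of genes. The combination raised 3 (8.35% of all genes) and lowered 8 (9.60%), together 25.6% of members beside 17.9% of genes. Both comparisons use the same CK tumors. All 3 combination tumors lay above all 3 CK tumors for 11 members and below them for 14, which is 25.6% and 32.6% of members beside 17.9% and 22.4% of genes. For anti-PD-1 alone the counts were 4 above and 8 below, 9.30% and 18.6% of members beside 11.8% and 17.2% of genes. The count for anti-PD-1 alone moved with single libraries, from 6 to 1 without CK tumor 2, anti-PD-1 tumor 1 or anti-PD-1 tumor 3, to 3 without CK tumor 3 or combination tumor 3, and to 14 without anti-PD-1 tumor 2. That for the combination moved from 11 to 4 without CK tumor 2, to between 5 and 7 without CK tumor 3 or any of the combination tumors, and rose to 16 without anti-PD-1 tumor 1. Calls over all genes moved in these fits as well. With anti-PD-1 alone, 1120 genes became 137 without CK tumor 2, 625 without anti-PD-1 tumor 1 and 238 without anti-PD-1 tumor 3. Without anti-PD-1 tumor 2 they became 1905. The 2434 genes of the combination became 864 without CK tumor 2 and 3344 without anti-PD-1 tumor 1.

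Calls of single members held to different degrees when each of the 12 libraries was left out in turn. With the combination, Sema5a, Epha2, Sema4c and Plxna2 were called in all 12 fits. Ephb4 was called in 10 (lost without CK tumor 2 or combination tumor 2), Epha8 in 10 (lost without CK tumor 2 or combination tumor 1) and Efna5 in 9 (lost without CK tumor 2, CK tumor 3 or combination tumor 1). Sema6c was called in 7 and lost its call without CK tumor 2, CK tumor 3 or any combination tumor, while Sema3c was called in 4, and Sema3a and Efnb1 in 3. With anti-PD-1 alone the fits were 12 for Epha2, 9 for Sema5a, 8 for Sema4c, 7 for Efna5, 4 for Epha8 and 2 for Efna1. Over 6 against 6 tumors, 9 of the 18 members were called in all 12 fits, namely Sema5a, Epha2, Epha8, Sema4c, Sema4d, Plxna2, Sema3c, Efna5 and Sema3a. The others were Efnb3 and Efna1 with 10, Efnb1 and Sema4a with 7, Ephb4 and Ephb1 with 5, Plxna3 with 3, and Epha3 and Plxna4 with 2.

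**Figure D2:**
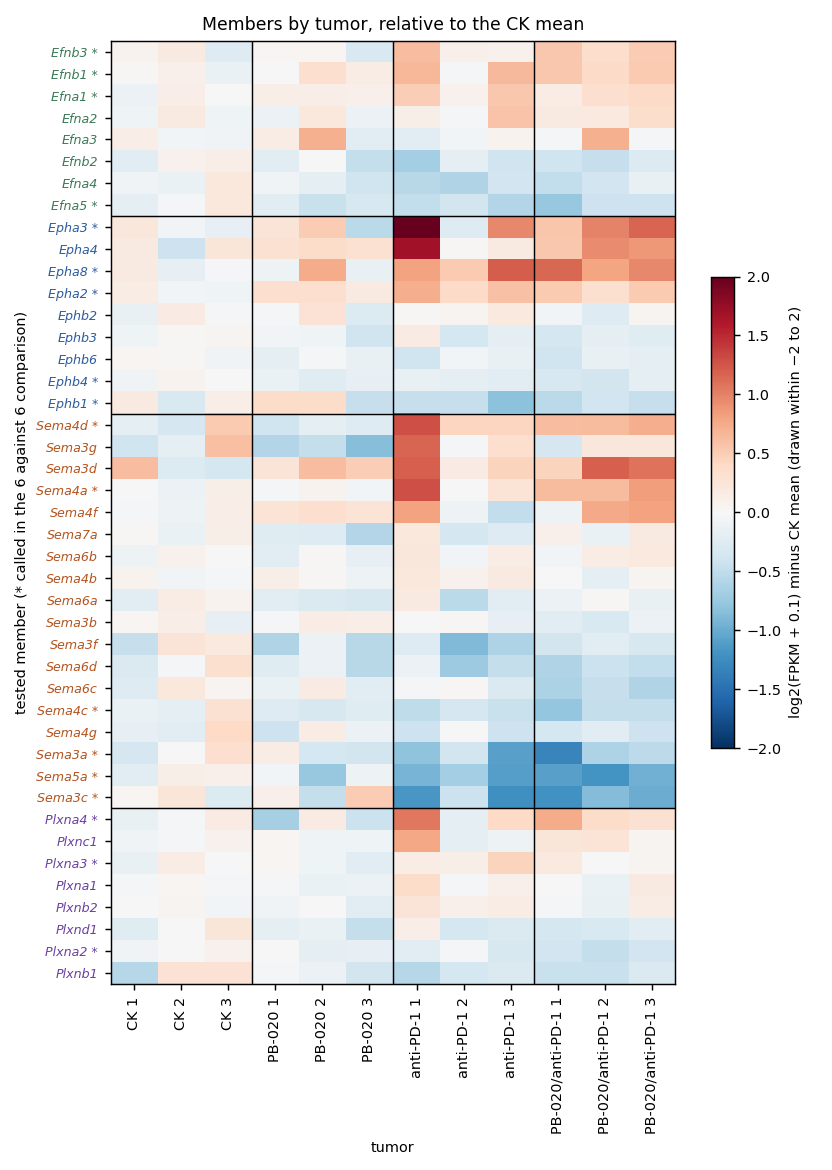
The 43 tested members (rows, by family) in the 12 tumors (columns), as log2(FPKM + 0.1) minus the mean of the CK tumors, drawn within −2 to 2. Asterisks mark the 18 members called between the 6 tumors given anti-PD-1 and the 6 not given it; Sema5a, Sema3c and Sema3a are blue and Epha2 and Epha8 red in the antibody-treated columns.

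Among ephrin-A ligands 1 of 5 was raised and 1 lowered between the antibody-treated tumors and the others, beside 11.8% and 12.3% of all genes. Efna5 (chr17:62602957-62881317), a lipid-anchored ligand known from the mapping of nerve connections, fell. Its FPKM values were 3.15, 3.57 and 4.22 in CK, 3.12, 2.63 and 2.88 with PB-020, 2.54, 2.80 and 2.39 with anti-PD-1, and 2.10, 2.68 and 2.70 with the combination. Every tumor of the 3 treated groups lay below the lowest CK tumor, though for PB-020 tumor 1 only by 0.03 FPKM. The log2 change was −0.48 with anti-PD-1 (standard error 0.13, adjusted p = 0.038) and −0.53 with the combination (standard error 0.13, adjusted p = 0.016). Without CK tumor 3 the combination change was −0.41 and was no longer called (adjusted p = 0.067). That tumor held fat and neutrophil transcripts and had the highest fibroblast and endothelial marker sums of all tumors.

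Efna1 (chr3:89271730-89280951), which encodes a ligand induced by inflammatory signals in vessels, went in the opposite direction. It had 16.2, 19.3 and 17.4 FPKM in CK, 19.4, 19.4 and 18.8 with PB-020, 24.8, 18.8 and 25.5 with anti-PD-1, and 19.4, 22.2 and 22.9 with the combination. Anti-PD-1 tumor 2 lay within the CK range, and the other antibody-treated tumors lay above it. The log2 change was 0.41 with anti-PD-1 (standard error 0.11, adjusted p = 0.042) and 0.30 with the combination (standard error 0.11, adjusted p = 0.075), so the combination did not pass. Its neighbours on chromosome 3, Efna3 and Efna4, are ligands of the same class. Efna4 gave −0.50 with anti-PD-1 and −0.33 with the combination (adjusted p = 0.071 and 0.17), and Efna3, at 0.43 to 0.90 FPKM, gave 0.00 and 0.20.

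Of the transmembrane ephrin-B ligands, 2 of 3 were raised between antibody-treated tumors and the others, beside 11.8% of all genes. Efnb1 (chrX:99136061-99149022), a ligand of EphB receptors that also occurs on lymphocytes, had 3.40, 3.58 and 3.02 FPKM in CK, 3.32, 4.2 and 3.68 with PB-020, 5.34, 3.24 and 5.28 with anti-PD-1, and 4.90, 4.36 and 4.81 with the combination. The combination tumors all lay above CK, while anti-PD-1 tumor 2 lay inside the CK range. The change passed with the combination (0.51, standard error 0.17, adjusted p = 0.049), close to the threshold, and not with anti-PD-1 alone (0.49, adjusted p = 0.084).

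Efnb3 (chr11:69554092-69561150), a ligand known from midline guidance in the spinal cord, had 1.52, 1.63 and 1.19 FPKM in CK, 1.48, 1.48 and 1.14 with PB-020, 2.25, 1.55 and 1.53 with anti-PD-1, and 2.12, 1.85 and 2.09 with the combination. The combination tumors stood above all CK and PB-020 tumors. Over the 6 against 6 tumors the difference was 0.44 (standard error 0.12, adjusted p = 0.021), whereas the combination against CK gave 0.49 and did not pass (adjusted p = 0.068). Efnb2, the ligand of EphB4 that marks arteries, had lower means than CK in each treated group, at 10.04, 8.77 and 8.97 against 11.7 FPKM, and passed in none.

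The called EphA receptors were all raised and the called EphB receptors all lowered. Between antibody-treated tumors and the others, 3 of 4 tested EphA genes rose (Epha2, Epha8 and Epha3), beside 11.8% of all genes. In the same comparison 2 of 5 EphB genes fell (Ephb4 and Ephb1), beside 12.3% of all genes. With each library left out in turn, Epha2 and Epha8 were called in all 12 fits, Ephb4 and Ephb1 in 5 and Epha3 in 2. Epha2 (chr4:141301221-141329384) had 38.7, 33.6 and 33.1 FPKM in CK, 44.1, 44.0 and 39.7 with PB-020, 58.0, 45.7 and 52.8 with anti-PD-1, and 50.6, 43.6 and 50.5 with the combination. All treated tumors lay above all CK tumors. Epha2 rose by 0.58 on the log2 scale with anti-PD-1 (standard error 0.09, adjusted p = 0.0067) and by 0.49 with the combination (standard error 0.09, adjusted p = 0.0050). With PB-020 it was higher by 0.29 at an unadjusted p of 0.0068, which did not survive adjustment (adjusted p = 0.87).

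Epha8 (chr4:136929419-136956859), an EphA receptor best known from the developing midbrain, was a low-level gene with a larger change. It had 1.23, 0.95 and 1.06 FPKM in CK, 1.0, 1.87 and 0.96 with PB-020, 1.96, 1.59 and 2.61 with anti-PD-1, and 2.49, 1.94 and 2.18 with the combination. All antibody-treated tumors lay above all CK tumors, and PB-020 tumor 2 lay among them. The fitted fold against CK was 1.92 with anti-PD-1 (log2 change 0.94, standard error 0.25, adjusted p = 0.039) and 2.06 with the combination (log2 change 1.04, standard error 0.25, adjusted p = 0.015).

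Epha3, on 11 to 97 counts per tumor, ran from 0.17 to 0.46 FPKM in tumors without antibody and from 0.23 to 1.5 in those with it. Its highest value was that of anti-PD-1 tumor 1, the library with muscle transcripts and the highest T cell and macrophage marker sums. The difference over 6 against 6 tumors was 1.19 (standard error 0.39, adjusted p = 0.042), and 0.78 without that tumor, no longer called (adjusted p = 0.077).

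Ephb4 (chr5:137350109-137374522), the receptor for ephrin-B2 in veins, fell by a small amount. Its values were 18.7, 20.8 and 19.8 FPKM in CK, 17.9, 16.7 and 17.7 with PB-020, 17.7, 17.4 and 16.8 with anti-PD-1, and 15.7, 15.2 and 17.2 with the combination. Every treated tumor was below every CK tumor. The combination change of −0.28 passed (standard error 0.06, adjusted p = 0.011), and the changes with PB-020 (−0.16) and anti-PD-1 (−0.17) did not (adjusted p = 0.87 and 0.10). Ephb1 was near the lower limit of the test, with 3 to 17 counts per tumor, and over 6 against 6 tumors its difference was −1.13 (standard error 0.34, adjusted p = 0.029). Ephb2, Ephb3 and Ephb6, which lacks kinase activity, passed in no comparison.

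**Figure D3:**
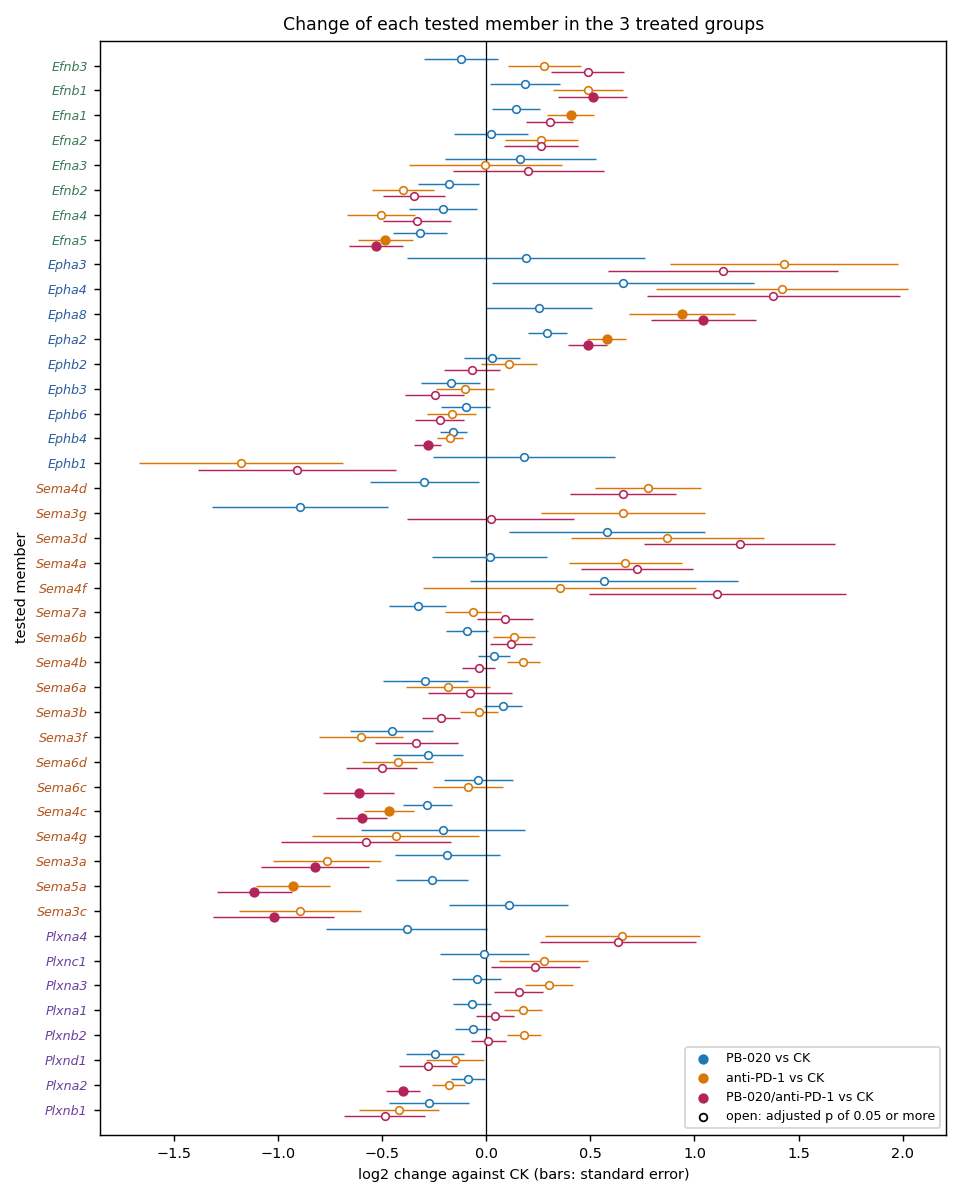
Log2 change of the 43 tested members against CK (x axis, bars are standard errors) with PB-020, anti-PD-1 and the combination; filled points have an adjusted p under 0.05. No PB-020 point is filled, and the lowest filled point is Sema5a with the combination at −1.11.

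Secreted class 3 semaphorins, of which 6 were tested, held 2 of the 4 semaphorins that fell between antibody-treated tumors and the others. In that comparison 12.3% of all genes fell. Sema3c (chr5:17574816-17730268), the most abundant semaphorin and a guide of the cardiac outflow tract, had 31.6, 36.2 and 25.3 FPKM in CK, 33.1, 22.1 and 43.7 with PB-020, 13.6, 22.8 and 13.1 with anti-PD-1, and 13.2, 16.7 and 15.4 with the combination. All antibody-treated tumors lay below all CK tumors. The PB-020 tumors spread over 22.1 to 43.7, so that the lowest of them was under anti-PD-1 tumor 2. Over 6 against 6 tumors Sema3c fell by 1.01 on the log2 scale (standard error 0.21, adjusted p = 0.0096). Against CK the change was −1.02 with the combination (standard error 0.29, adjusted p = 0.042) and −0.89 with anti-PD-1 (standard error 0.29, adjusted p = 0.091).

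Sema3a (chr5:13124822-13603485), which collapses growth cones through neuropilin-1, had 1.82, 2.36 and 2.96 FPKM in CK, 2.59, 1.80 and 1.78 with PB-020, 1.29, 1.79 and 1.05 with anti-PD-1, and 0.88, 1.49 and 1.59 with the combination. The antibody-treated tumors were all below the CK tumors, anti-PD-1 tumor 2 by 0.03 FPKM. The combination change of −0.82 (standard error 0.26, adjusted p = 0.048) was just within the threshold. The other tested class 3 genes, Sema3b, Sema3d, Sema3f and Sema3g, passed in no comparison.

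Class 4 semaphorins, membrane proteins of which several act on immune cells, moved in both directions. Between antibody-treated tumors and the others 2 of 6 were raised and 1 lowered, beside 11.8% and 12.3% of all genes. Sema4c (chr1:36548639-36560699), a ligand of plexin-B2, had 8.92, 8.64 and 12.01 FPKM in CK, 8.12, 7.77 and 8.22 with PB-020, 6.81, 7.68 and 7.14 with anti-PD-1, and 5.63, 6.95 and 7.01 with the combination. All treated tumors lay below all CK tumors, and all 6 antibody-treated tumors lay below all 6 others. The log2 change was −0.47 with anti-PD-1 (standard error 0.12, adjusted p = 0.033) and −0.60 with the combination (standard error 0.12, adjusted p = 0.0068). CK tumor 3 was the highest, and without it the combination change was −0.43 and still called.

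Sema4a (chr3:88435959-88461182), found on dendritic cells and activated T cells, had 4.77, 4.36 and 5.18 FPKM in CK, 4.67, 4.98 and 4.56 with PB-020, 11.8, 4.71 and 5.77 with anti-PD-1, and 7.41, 7.47 and 8.55 with the combination. The combination tumors lay above all CK and PB-020 tumors, and anti-PD-1 tumor 2 did not. Its 6 against 6 difference was 0.69 (standard error 0.19, adjusted p = 0.028). Without anti-PD-1 tumor 1, which had the highest value, the difference was 0.44 with a smaller standard error of 0.08 (adjusted p = 0.0018).

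Sema4d, an immune semaphorin of T cells that binds plexin-B1, ranged from 2.15 to 4.16 FPKM without the antibody and from 3.89 to 7.17 with it, and of the tumors without it CK tumor 3 alone reached the antibody-treated range. The 6 against 6 difference was 0.87 (standard error 0.18, adjusted p = 0.0077), 0.69 without anti-PD-1 tumor 1 and 1.03 without CK tumor 3. Against CK, Sema4d did not pass with the combination (0.66, adjusted p = 0.098), and without CK tumor 3 it did (0.97, adjusted p = 0.022). Sema4b, Sema4f and Sema4g passed in no comparison.

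Sema5a (chr15:32244813-32696341), a membrane semaphorin with thrombospondin repeats, had the lowest p of all members in the combination comparison. It had 3.25, 4.09 and 4.06 FPKM in CK, 3.64, 2.19 and 3.53 with PB-020, 1.93, 2.31 and 1.71 with anti-PD-1, and 1.72, 1.60 and 1.89 with the combination. The antibody-treated tumors were all below the CK tumors, and PB-020 tumor 2 fell between the anti-PD-1 tumors. The fitted level with the combination was 0.46 of that in CK (log2 change −1.11, standard error 0.18, adjusted p = 0.0036), and the anti-PD-1 change was −0.93 (standard error 0.18, adjusted p = 0.014).

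Among class 6 genes the combination lowered 1 of 4, beside 9.60% of all genes. Sema6c (chr3:95160420-95174050), a transmembrane semaphorin, had 1.58, 2.24 and 1.99 FPKM in CK, 1.74, 2.17 and 1.64 with PB-020, 1.88, 1.95 and 1.56 with anti-PD-1, and 1.20, 1.37 and 1.23 with the combination. The combination tumors lay below all other tumors, and the 3 other groups overlapped. The combination change was −0.61 (standard error 0.17, adjusted p = 0.026), against −0.09 with anti-PD-1. The combination tumors differed from those given anti-PD-1 alone by −0.53 (95% interval −0.89 to −0.16) at an unadjusted p of 0.0083 and an adjusted p of 0.66, so the difference between the treatments did not pass. Sema7a, a lipid-anchored semaphorin that binds plexin-C1 and integrins, passed in no comparison.

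**Figure D4:**
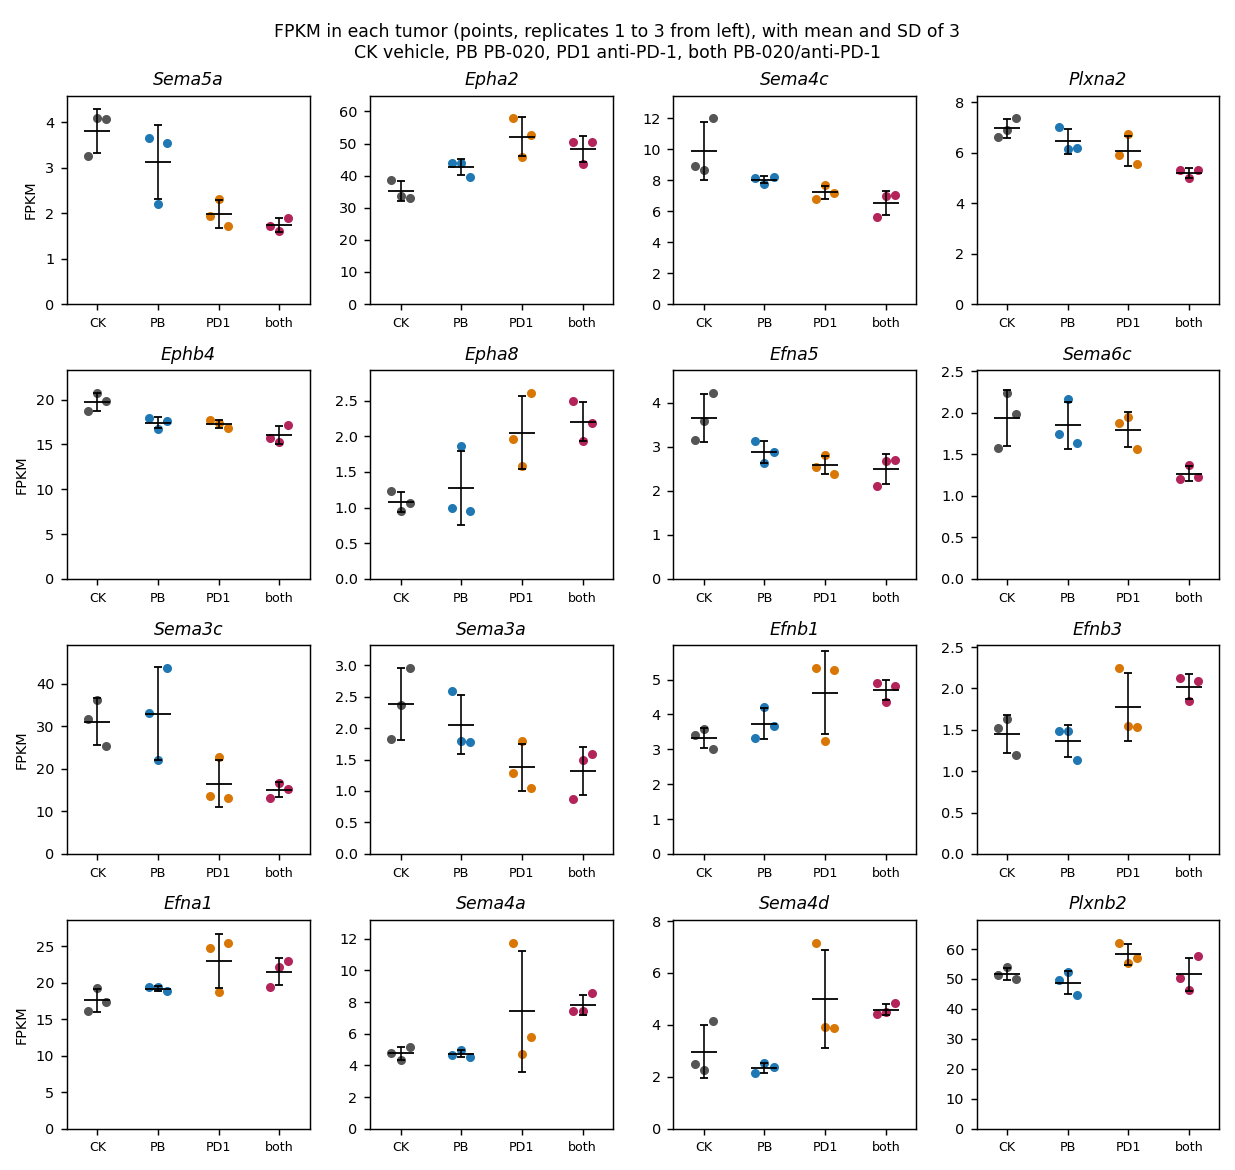
FPKM in each of the 12 tumors for 15 called members and for Plxnb2, the most abundant plexin; points are tumors, dashes the mean and bars the SD of 3. The 8 members lowered with the combination all have their lowest mean there (both), and Epha2 and Epha8 sit above CK in all 6 antibody-treated tumors.

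Plexins had the smallest median size of log2 change with the combination, 0.26, against 0.34 for ephrins, 0.49 for Eph receptors and 0.59 for semaphorins. Plxna2 (chr1:194619791-194816869), a receptor of class 6 semaphorins and, with neuropilins, of class 3, had 6.61, 6.92 and 7.38 FPKM in CK, 7.03, 6.16 and 6.17 with PB-020, 5.91, 6.74 and 5.57 with anti-PD-1, and 5.33, 4.99 and 5.30 with the combination. The combination tumors lay below every other tumor. The combination change was −0.40 (standard error 0.08, adjusted p = 0.0068), and the anti-PD-1 change of −0.18 did not pass (adjusted p = 0.17). Against anti-PD-1 alone the combination gave −0.22 (95% interval −0.39 to −0.05, adjusted p = 0.66).

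Plxnb2 (chr15:89155546-89182018), the most abundant plexin, had 51.3, 53.9 and 49.99 FPKM in CK, 49.5, 52.2 and 44.7 with PB-020, 62.1, 55.4 and 57.1 with anti-PD-1, and 50.4, 46.5 and 57.6 with the combination. The anti-PD-1 tumors lay above CK and the combination tumors overlapped it. The combination change was 0.01 (95% interval −0.17 to 0.19), and the anti-PD-1 change of 0.18 did not pass (adjusted p = 0.18). Plxna3 and Plxna4, also class A receptors, were called over 6 against 6 tumors, by 0.25 (adjusted p = 0.041) and 0.83 (adjusted p = 0.040). Plxna4 lost its call without anti-PD-1 tumor 1 (0.60, adjusted p = 0.071). Plxna1, Plxnb1, Plxnc1 and Plxnd1 passed in no comparison.

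PB-020 by itself called 0 members and 0% of genes with edgeR, and DESeq2 and limma also called 0 members. At an unadjusted p under 0.05 there were 6 members beside 5.46% of genes. These were Epha2, higher, and Ephb4, Efna5, Sema7a, Sema4c and Sema3f, lower. Sema3f and Sema7a, a secreted and a lipid-anchored semaphorin, had changes of −0.45 and −0.33. Over the 6 tumors given PB-020 against the 6 not given it, 0 members and 0% of genes passed in edgeR and 0 members in DESeq2 and limma. At the unadjusted level there were 5 members beside 10.9% of genes, and these were lower Ephb4, Plxna2, Sema3g, Sema4c and Sema6c.

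The combination against anti-PD-1 alone asks what PB-020 added. It called 0 members and 0% of genes with edgeR, and 0 members with DESeq2 and limma. At an unadjusted p under 0.05 there were 3 members beside 7.26% of genes, Sema6c, Plxna2 and Sema4b, each lower with the combination. For Sema5a the difference was −0.19 (95% interval −0.59 to 0.21) and for Epha2 −0.09 (−0.29 to 0.10). The interaction, which is the combination change minus the sum of both single changes, also called 0 members and 0% of genes with edgeR, and 0 members with DESeq2 and limma. Its unadjusted p was under 0.05 for 4 members, beside 2.29% of genes. For Epha2 the interaction was −0.39 (95% interval −0.67 to −0.11, adjusted p = 0.9998), meaning a combination change below the sum of the single ones, and Sema4b gave −0.25. Sema3f and Sema7a gave 0.72 and 0.48.

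Genes that act with these families were read from lists chosen by hand. Of 28 tested partners of Eph receptors and ephrins, such as kinases, adaptors and exchange factors, the combination raised 2 and lowered 1 (10.7% beside 17.9% of all genes), and anti-PD-1 raised 1 (3.57% beside 8.26%). Acp1, a phosphatase that acts on Eph receptors, rose by 0.27 on the log2 scale (adjusted p = 0.042), and Tiam1, a Rac exchange factor bound by ephrin-B, by 0.33 (adjusted p = 0.042). The kinase gene Abl1 fell by 0.25 (adjusted p = 0.022), and Src, a kinase of both signaling directions, rose by 0.35 with anti-PD-1 (adjusted p = 0.029).

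Of 28 tested partners of plexins, the combination raised 4 and lowered 4 (28.6% beside 17.9% of all genes), and anti-PD-1 raised 2 and lowered 1 (10.7% beside 8.26%). Mical1, an oxidase that takes apart actin below plexin A, went from 13.2 ± 0.42 FPKM in CK to 9.63 ± 0.35 with the combination (SD, n = 3), and its log2 change was −0.45 (adjusted p = 0.0031). Dpysl3, of the family that carries the semaphorin 3A signal, fell by 0.51 (adjusted p = 0.0070). Rras2, a Ras-like GTPase, rose by 0.53 (adjusted p = 0.0094), and Arhgef12, which binds plexin-B receptors, fell by 0.25 (adjusted p = 0.013). Rnd1, a GTPase that binds plexins, rose by 0.47 with the combination (adjusted p = 0.036) and by 0.56 with anti-PD-1 (adjusted p = 0.032). L1cam, an adhesion protein in the Sema3a receptor, rose by 0.68 (adjusted p = 0.017). The neuropilin genes did not pass. Nrp1 changed by −0.54 (adjusted p = 0.064) and Nrp2, the more abundant, by 0.04.

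Among 19 tested genes of other guidance systems (netrins, Slits, their receptors and the repulsive guidance molecules), the combination lowered 3 and raised 0 with edgeR (15.8% beside 17.9% of all genes), and anti-PD-1 lowered 2 (10.5% beside 8.26%). Rgma, a lipid-anchored ligand of neogenin, went from 17.7 ± 1.57 FPKM in CK to 7.30 ± 1.46 with the combination (SD, n = 3), and fell by 1.30 on the log2 scale (standard error 0.22, adjusted p = 0.0055). Rgmb changed by −0.92 (adjusted p = 0.0069) and the netrin gene Ntn1 by −0.46 (adjusted p = 0.011). With anti-PD-1 alone Rgma and Rgmb gave −1.23 and −0.76.

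Cell type markers moved with the same comparisons. Of 10 T cell markers the combination raised 9 and anti-PD-1 raised 8. Sema4a and Sema4d, which passed over 6 against 6 tumors, passed in neither of these comparisons (adjusted p = 0.090 and 0.098 with the combination, 0.15 and 0.083 with anti-PD-1). The fibroblast list did not move one way. Col3a1, Dcn and Pdgfra were lowered in both comparisons. Col1a1, Col1a2, Lum and Fap had higher means than CK in both and did not pass, as with Lum at 6.72 FPKM in CK and 21.4 with the combination (adjusted p = 0.12). With anti-PD-1 those higher means rested on tumor 1, as for Col1a1 at 339.7 FPKM against 60.4 and 98.0 in tumors 2 and 3. In those 2 tumors none of the 4 genes exceeded the CK range, and Col1a2 lay below it (141.7 and 156.3 against 162.0 to 194.7). Of 7 pericyte markers 3 were lowered in both and 1 was raised with anti-PD-1, and of 10 endothelial markers 1 was lowered in both. In each comparison 9 of the endothelial markers had a lower mean than CK and 1 a higher one. Their sum was 63.1 to 97.2 FPKM in CK and 56.0 to 66.3 with PB-020. It was 51.5 to 83.8 with anti-PD-1 and 56.1 to 65.8 with the combination. Pericyte markers summed to 70.3 to 82.1 FPKM in CK and 65.8 to 66.8 with PB-020. They summed to 63.8 to 86.9 with anti-PD-1 and 63.6 to 68.3 with the combination. Sema5a and Efna5 were lowered with anti-PD-1 and with the combination, and Sema3a, Sema3c and Ephb4 with the combination. All 5 erythroid markers were lowered in both. Dendritic cell markers summed to 10.8 to 13.0 FPKM in CK and 14.1 to 16.4 with the combination, with 1 of 6 raised, and macrophage markers to 772.3 to 994.3 and 867.4 to 994.2 with 0 of 7 called. Of 4 keratinocyte markers 1 was raised in both comparisons, beside the higher Epha2. This was Krt14, at a mean of 92.9 FPKM in CK and 183.1 with the combination, while Krt1, Krt5 and Krt10 were at 0 to 6.77 FPKM in all tumors and did not pass. The part of these cells in the changes of the members was not tested.

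**Figure D5:**
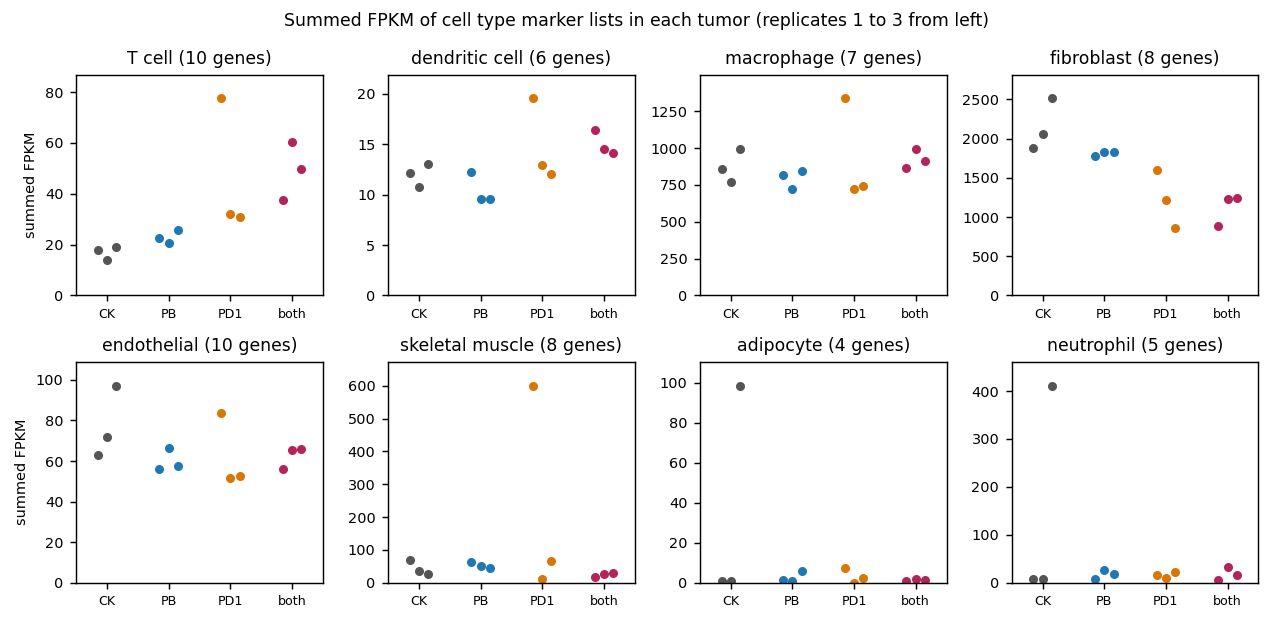
Summed FPKM of 8 marker lists in each tumor, with replicates 1 to 3 from left in each group. T cell sums are 30.8 or more in the 6 antibody-treated tumors and at most 25.9 in the others. Muscle in anti-PD-1 tumor 1 and fat and neutrophil markers in CK tumor 3 stand far above the rest. Anti-PD-1 tumor 1 also has the highest T cell, dendritic cell and macrophage sums, and CK tumor 3 the highest fibroblast and endothelial sums.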

How the data were processed

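RNA from whole tumors was sequenced by the authors, aligned to the mouse genome with Bowtie2 at default settings and quantified with RSEM. The submitters' processing notes also name HISAT and GRCm38.p6, without roles. Tool versions and the annotation are not given in the sources used here. The deposited values are RSEM expected counts, estimates without normalization (91% of values are whole), and FPKM values, scaled by the authors for length and library total. Each value belongs to 1 tumor. Deposited TPM values and group averages were not used.

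Counts were rounded, filtered with filterByExpr (minimum count 10) and scaled by TMM in edgeR 4.0.16 (R 4.3.3). A robust quasi-likelihood model of 4 group means was fitted to all 12 libraries, and two-sided p values took Benjamini-Hochberg adjustment over 13563 genes. Standard errors are the log2 change divided by the root of F, and 95% intervals use the t quantile of the same fit. The labels do not say that tumors came from separate mice, so the p values measure the spread between these samples. FPKM values are shown per tumor, with no test.

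The members and all gene lists were chosen with earlier results of these data known. Values in every tumor were given for members called in a comparison with CK or in a 6 against 6 comparison, at most 14 in order of the combination p, and for the most abundant member of each family. Partners were named if called against CK, at most 6 per list in order of p. Sema4d, Epha3, Ephb1, Plxna3 and Plxna4 were also called and are given by range or change. Alternatives were DESeq2 1.42.0, limma 3.58.1 on log2(FPKM + 1) and log2(FPKM + 0.1), other filters and scaling, only the groups compared, a replicate block, the thresholds of the study, its test per gene on FPKM, and each library left out. In simulated counts with changes between combination and CK over 13563 genes, edgeR recovered 36 of 67 genes changed 1.5-fold, 48 of 67 changed 2-fold and 55 of 66 changed 3-fold, and called 7 of 13269 unchanged genes. Only these few genes were changed, whereas 2434 were called in the tumors. No library with muscle or fat transcripts was simulated, so these figures need not hold for the real comparison. Upstream windows of 250 bases and gene positions were taken from RefSeq on GRCm38.p6, in which 50 of 50 members were found.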

Additional observations from a re-analysis of the deposited data

How the results depend on the processing

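The 6 members called with anti-PD-1 against CK became 10 with DESeq2, 3 with limma on log2(FPKM + 1) or log2(FPKM + 0.1), 0 when only the groups compared entered the fit, and 10 at the study's thresholds (fold over 1.5, unadjusted p under 0.05). Leaving out a library gave 1 to 14. The 11 with the combination became 18 with only the groups compared, and 4 to 16 with a library left out. The 18 over 6 against 6 tumors became 11 to 23. The fewest, 11, came without PB-020 tumor 1, anti-PD-1 tumor 3 or combination tumor 1. At the study's thresholds 1 member passed for PB-020 (6 against 6 tumors) and 1 for the interaction, against 0, and these and the remaining counts of 0 gave 0 with every library left out. Over all genes, 1120 were called with anti-PD-1 against CK, and 1672 with DESeq2. Limma called 940 on log2(FPKM + 1) and 994 on log2(FPKM + 0.1), and the study's thresholds called 974. There were 3 with only those groups in the fit, 631 with the per-gene test on FPKM, and 137 to 1905 with a library left out. Limma on log2(FPKM + 1) called 353 raised and 587 lowered, against 567 and 553. For the combination, 2434 became 2988 with only the groups compared, and 1155 and 1202 with the thresholds and test of the study. With a library left out it became 864 to 3344. The 3279 over 6 against 6 tumors became 1048 at those thresholds and 2086 to 3690 with a library left out. DESeq2 called 6 genes for PB-020 against CK and 61 over 6 against 6 tumors, against 0. Replicate numbers gave little sign of pairing between tumors, though differently numbered pairs were not compared. Of 18 same-numbered pairs 2 had correlated deviations over 0.1, with a range of −0.21 to 0.29. With the replicate block, 3, 8 and 14 members were called for anti-PD-1, the combination and 6 against 6 tumors, beside 870, 2010 and 2711 genes. The causes of these shifts were not tested. No log2 change that passed its test turned its sign in the alternatives run for the named members. Of those that did not pass, Sema6c with anti-PD-1 (−0.09) became 0.05 without CK tumor 2, and Plxnb2 with the combination (0.01) turned negative in 5 alternatives, at most to −0.07. Libraries of 16545394 to 17217035 counts left genes such as Ephb1, at 3 to 17 counts, poorly resolved.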
